A study of Mus musculus with 6 samples.

Results

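Ikaros peaks that lay just outside protein-coding genes are described here, in mouse natural killer (NK) cells. A peak was taken when its smallest listed distance to a gene was 1 to 1000 bp and at least 1 of its listed genes was protein-coding, and peaks of different libraries that shared at least 1 base were merged into 1 region. This gave 47, 146 and 85 peaks of the 685, 2084 and 1342 in the lists of wild-type (WT) replicates 1, 2 and 3, and 202 regions of the 2526 in the series. Member peaks were 6.86%, 7.01% and 6.33% of the lists (mean 6.73%, SD 0.354, n = 3), against 73.7%, 71.8% and 78.2% for peaks that touched a gene. Those regions carry the names of 203 genes, since 1 region is listed with both Abtb1 and Podxl2.

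The study mapped Ikaros by chromatin immunoprecipitation with sequencing (ChIP-seq) in NK cells from spleen that had been grown in culture with 50 ng/ml of IL-15. Its 6 samples are 3 Ikzf1 KO libraries, in which a conditional deletion removed Ikzf1 from NKp46-expressing cells, and 3 WT libraries. All received the same anti-Ikzf1 antibody. The KO libraries were not analysed here, so every value below is a WT value and no genotype is compared, and since the labels do not say that replicates came from separate mice or cultures, spread between the lists may be technical.

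Ikaros, encoded by Ikzf1, is a zinc finger transcription factor of lymphocytes that binds DNA through a short core, TGGGAA, and works with chromatin remodelling complexes to repress or activate genes. The stretch just upstream of a gene's transcription start is its proximal promoter, where general factors and cell-type factors meet and where nucleosomes are often displaced in active genes. A peak there is assigned to its gene by closeness, which does not show that the gene responds to the factor.

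The promoters of 4 genes whose region was in all 3 lists are printed first, since they show what DNA lies under these regions. Pa2g4, D10Wsu102e and Rasa1 were chosen because the Ikaros core lies inside the region, and Arrdc3 because its region ranked higher and covered a similar length of the promoter window, in which the core was not found. Each is 300 bases from RefSeq (GRCm38.p6), from 250 bases before the transcription start to 50 after it, written 5′ to 3′ on the gene's own strand. Capitals mark TGGGAA or its reverse complement TTCCCA. Windows are chr10:128565885-128566184 (minus strand) for Pa2g4, chr10:83359971-83360270 (plus strand) for D10Wsu102e, chr13:85289437-85289736 (minus strand) for Rasa1 and chr13:80883134-80883433 (plus strand) for Arrdc3.
Pa2g4: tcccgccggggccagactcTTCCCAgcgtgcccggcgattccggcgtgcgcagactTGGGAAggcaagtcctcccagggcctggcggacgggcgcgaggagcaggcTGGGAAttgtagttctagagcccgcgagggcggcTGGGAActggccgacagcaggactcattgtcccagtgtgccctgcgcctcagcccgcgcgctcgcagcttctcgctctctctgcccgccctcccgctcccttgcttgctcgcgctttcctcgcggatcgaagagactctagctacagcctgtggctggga
D10Wsu102e: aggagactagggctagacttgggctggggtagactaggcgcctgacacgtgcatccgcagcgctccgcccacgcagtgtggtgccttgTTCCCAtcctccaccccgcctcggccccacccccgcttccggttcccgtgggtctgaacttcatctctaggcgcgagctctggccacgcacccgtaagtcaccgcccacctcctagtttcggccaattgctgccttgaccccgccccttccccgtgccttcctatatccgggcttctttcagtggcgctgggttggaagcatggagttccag
Rasa1: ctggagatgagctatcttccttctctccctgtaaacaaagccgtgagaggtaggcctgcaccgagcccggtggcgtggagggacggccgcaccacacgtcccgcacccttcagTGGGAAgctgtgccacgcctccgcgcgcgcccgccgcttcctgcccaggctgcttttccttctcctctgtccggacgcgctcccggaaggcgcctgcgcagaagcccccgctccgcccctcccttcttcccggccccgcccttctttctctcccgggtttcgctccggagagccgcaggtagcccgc
Arrdc3: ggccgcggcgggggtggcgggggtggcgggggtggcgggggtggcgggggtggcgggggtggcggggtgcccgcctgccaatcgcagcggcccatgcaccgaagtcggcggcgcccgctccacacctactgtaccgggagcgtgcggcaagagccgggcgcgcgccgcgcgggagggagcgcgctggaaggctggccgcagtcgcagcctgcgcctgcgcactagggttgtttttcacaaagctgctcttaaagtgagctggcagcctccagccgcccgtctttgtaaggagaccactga
The Pa2g4 window holds 4 copies of the core, beginning at -231, -194, -144 and -110 bp from the start, and all 4 lie in the 180 bases that the region covers. At least 4 copies were found in 8 of the 17492 protein-coding promoters in the table (0.0457%), and at least 1 in 24.5%. D10Wsu102e has 1 copy, at -162 bp, and Rasa1 has 1 copy, at -137 bp. A region is the merged extent of its peaks, so a copy inside it need not lie in the peak of every list. Placed by their distances and widths, the peaks of replicates 2 and 3 at Rasa1 leave the copy out, and that of replicate 1 holds it. At Pa2g4 the copy at -110 bp lies outside the peak of replicate 3. The D10Wsu102e copy lies inside the peak of each list. The Arrdc3 window has 208 bases inside the region and no copy, and the rest of that 640 bp region was not read. Of the 8 promoters ranked for printing by the strength of their region, 3 held the core. A match is a description of the letters, not a bound site.

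Most regions of this kind sat in front of the gene, close to its start. The rule uses distance but not which end of the gene a peak is near, and RefSeq gave a strand for 160 of the 202 genes. Of these, 152 regions lay on the start side (Clopper-Pearson 95% interval of the share 90.4% to 97.8%) and 8 on the end side. The share was 95.7% for regions in at least 2 lists, 44 of 46, and 14 of 15 for regions in all lists. Measured from the midpoint of the region, 142 of 160 were within 1000 bp of the listed start. The median offset was -246.25 bp, with quartiles of -382.75 and -160.375 bp, and 83 of the 142 (58.5%) were centred 100 to 300 bp before the start. That 137 of the 142 were upstream rather than downstream is set largely by the rule, which leaves out peaks touching a gene. Peaks were at least 201 bp wide, so one outside a gene cannot be centred less than 100 bp from its listed edge. The 100 to 300 bp position is therefore also set in part by the rule and by peak width.

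**Figure D1:**
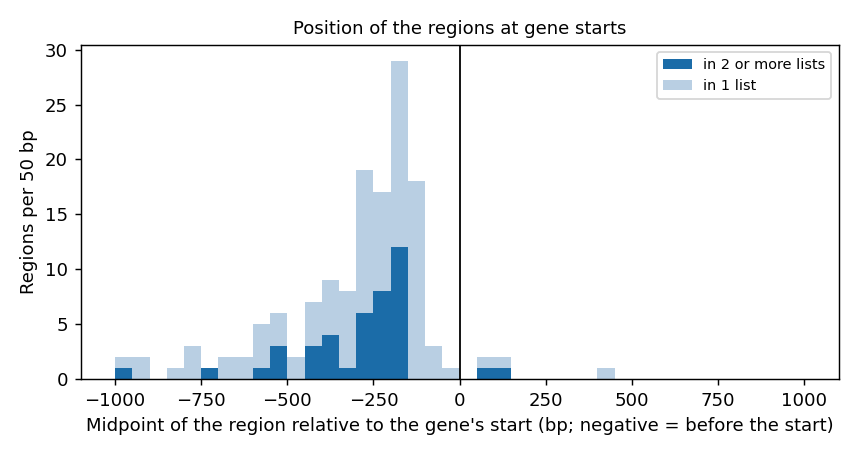
Midpoint of each region relative to the listed transcription start (x axis, bp, negative before the start) against the number of regions per 50 bp (y axis), for regions within 1000 bp of the start. Dark bars are regions in 2 or more lists, with regions in 1 list stacked on them in light colour. The regions gather at 100 to 300 bp before the start, around the median of -246.25 bp. This position is set in part by the rule and by peak width.

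The 8 regions on the end side are the exceptions. That at Slc11a1, which encodes a metal ion transporter of phagocyte vesicles, was found in all lists, at chr1:74386675-74387026 (mm10), 628, 612 and 630 bp past the gene in replicates 1, 2 and 3. The region at Cep19, a centrosomal protein gene, was in replicates 2 and 3. Each of the other 6 was in 1 list, namely Swap70 in replicate 1, Jund, Fhl3, Gga1 and Neurl3 in replicate 2, and Plekho2 in replicate 3. At Jund, an AP-1 gene, the region lay 22 bp beyond the gene. The rule leaves out peaks that touch a gene, so this does not show whether Jund had another peak. An end of Iqcn lay within 1000 bp of the region's midpoint, so Jund is not the sole candidate.

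Distances were short. The smallest distance was 1 to 100 bp in 114 regions (56.4%), 101 to 250 bp in 44 (21.8%), 251 to 500 bp in 29 (14.4%) and 501 to 1000 bp in 15 (7.43%). Of the 114 closest regions 33 were in at least 2 lists, as were 15, 2 and 5 of the regions in the wider classes, taken in order of distance. Median distances of the peaks were 92, 81 and 107 bp in replicates 1, 2 and 3. At the far limit, peaks at Ier2 (980 bp), Zc3h4 (891 bp) and Pdk2 (883 bp) were just inside, and peaks at Fam46a (1021 bp), Lrch1 (1063 bp) and Tmem44 (1083 bp) just outside. Fold enrichment was 3.83 at Ier2 and 8.60 at the Fam46a peak.

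Gene ends are also close together in places. In 29 of the 202 regions (14.4%) an end of another protein-coding gene lay within 1000 bp of the region's midpoint. There the closest gene is not the sole candidate. Examples, chosen after their values were seen, are Kri1 with Cdkn2d, an INK4 inhibitor of cyclin-dependent kinases, Rpl37 with Card6, Phf23 with Gabarap, an autophagy gene, and Apof with Stat2, a signal transducer of interferon receptors. Regions described below that have such a neighbour include Nkg7 (with Lim2), Psmb3 (with Pcgf2) and Tgfb1 (with B9d2). Of 190 regions here with a coding gene end within 1000 bp of their midpoint, 26 (13.7%) also had a second coding gene's end there. Among the other regions of the series near a coding gene end, the share was 17.9% (186 of 1037). RefSeq places 66 of the 202 regions (32.7%) partly inside the span of their own gene, so its gene boundaries differ from those behind the authors' distances.

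By the rule, 21 regions were in all 3 lists (10.4%, interval 6.55 to 15.5), 34 in exactly 2 and 147 in 1 (72.8%). Counting any overlapping peak of another list, whatever its distance, 40 were in all lists (19.8%, interval 14.5 to 26.0) and 92 in at least 2 (45.5%, interval 38.5 to 52.7). The same counts over the whole series were 500 of 2526 regions in all lists (19.8%) and 1084 in at least 2 (42.9%). Since 1 qualifying peak makes a region a member, regions with peaks in several lists had more chances to be counted, and the comparison by peaks is given below. The lists are unequal in length, and 95 of the 147 single-list regions came from replicate 2, the longest list, against 34 from replicate 3 and 18 from replicate 1. Replicates 2 and 3 alone shared 26 regions, replicates 1 and 2 alone 4, and replicates 1 and 3 alone 4.

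**Figure D2:**
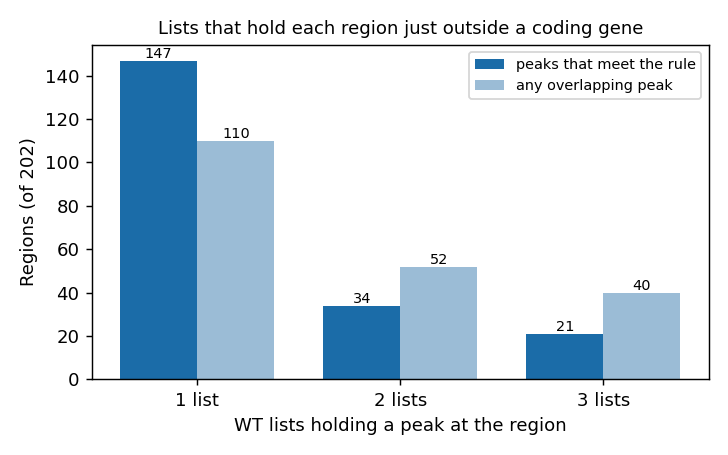
Number of the 202 regions (y axis) by the number of WT lists holding a peak there (x axis). Dark bars count only peaks that meet the rule and light bars count any overlapping peak, which lowers the regions in 1 list to 110, against 147 by the rule, and gives 40 in all 3 lists, against 21.

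Some regions were outside the gene in 1 library and had a peak touching a gene in another. In 43 regions (21.3%) another list had a peak at the same place that did not meet the rule, 56 such peaks in all, and every one of the 56 touched a gene. Within those regions the member peaks had a median width of 281 bp. It was 429 bp for the peaks that touched a gene, which were wider in 34 of the 43. Their median percentiles of fold enrichment (100 being the strongest peak of a list) were close, at 44.7 for the member peaks and 46.3 for the others. Of the 147 single-list regions, 37 had such a peak in another list. The clearest case, chosen after its values were seen, is Cenpu, a kinetochore gene. Fold enrichment there was 10.8 at 9 bp from the gene in replicate 1. It was 10.5 and 14.0 for peaks touching a gene in replicates 2 and 3. Gzmc, a granzyme gene of activated killer cells, had 6.02 at 43 bp in replicate 1. Peaks touching a gene there had 6.95 and 6.46 in replicates 2 and 3.

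Peaks just outside genes were of ordinary strength, and the highest of them were far below the strongest peaks of their lists. Fold enrichment, the authors' linear ratio for each peak, is comparable only within a list. Its lowest, median and highest values for these peaks were 3.73, 5.14 and 10.8 in replicate 1, 3.46, 4.46 and 10.9 in replicate 2, and 3.63, 5.09 and 10.3 in replicate 3. The strongest peaks of the same lists reached 46.4, 85.2 and 70.7. The weakest of all other peaks were at 2.27, 2.00 and 2.14, below the lowest of the peaks just outside genes. Extremes depend on the number of peaks, and the peaks just outside genes are the much smaller class. The median percentile was 51.2, 40.3 and 53.2 in replicates 1, 2 and 3, against 50.0, 51.1 and 49.6 for all other peaks. The mean difference was -1.99 (SD 7.71, n = 3 lists; exact paired permutation test, two-sided, p = 1), with replicate 2 lower and the others higher. The smallest p that this exact test can give with 3 lists is 0.25.

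Set against peaks over 1000 bp from any gene, at medians of 53.2, 60.2 and 55.2, the peaks just outside genes were lower in 3 of 3 lists (exact paired permutation p = 0.25, two-sided, the smallest 3 lists allow). The share of peaks over the 90th percentile of their list was 4.26%, 7.53% and 9.41%, against 10.5%, 10.2% and 10.1% of all other peaks, also lower in 3 of 3 lists (exact paired permutation p = 0.25, two-sided). Against peaks overlapping a gene, neither held in 3 of 3 lists. Those had median percentiles of 48.8, 49.1 and 48.1, below the peaks just outside genes in replicates 1 and 3. Their shares over the 90th percentile were 10.1%, 9.43% and 9.06%, lower only in replicate 3 (exact paired permutation p = 0.5, two-sided). None of these differences can pass 0.05 in this design. Peaks just outside genes were narrower in every list, with median widths of 241, 273 and 253 bp, against 284, 294 and 298 bp (mean difference -36.3 bp, SD 13.3, n = 3 lists; exact paired permutation p = 0.25, two-sided). A wide peak is more likely to touch the gene and so to be left out, so the rule is not independent of width. Peaks of the smallest width called, 201 bp, made up 14.9%, 15.1% and 8.24% of the peaks just outside genes, against 9.40%, 8.26% and 7.80% of the others.

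**Figure D3:**
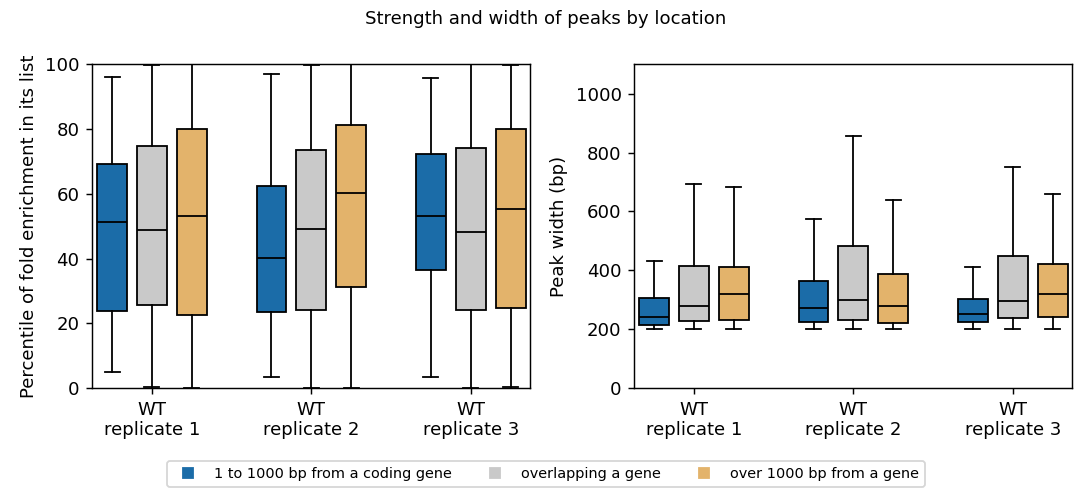
Percentile of fold enrichment within the list (left, 100 is the strongest peak) and peak width in bp (right) in WT replicates 1, 2 and 3, for peaks 1 to 1000 bp from a coding gene, peaks overlapping a gene and peaks over 1000 bp from a gene. Boxes span the quartiles, the line is the median, whiskers reach 1.5 times the interquartile range and points beyond them are not drawn. Median widths of the peaks just outside genes, 241, 273 and 253 bp, are the lowest of the 3 classes in each list.

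The share of peaks with a partner in both other lists was 72.3%, 19.2% and 30.6%, against 73.2%, 24.4% and 37.7% of all other peaks. The mean difference was -4.38 percentage points (SD 3.21, n = 3 lists; exact paired permutation p = 0.25, two-sided), with the peaks just outside genes lower in 3 of 3 lists. With a partner in at least 1 other list the shares were 89.4%, 43.8% and 72.9%, against 90.6%, 50.4% and 75.3% of all other peaks (exact paired permutation p = 0.25, two-sided). Against peaks over 1000 bp from a gene the order was mixed. Of those, 69.8%, 20.6% and 43.9% had a partner in both other lists, lower only in replicate 1 (exact paired permutation p = 0.75, two-sided). With a partner in at least 1 other list they were at 88.9%, 41.9% and 83.3%, lower in replicates 1 and 2. Over the 25 regions that replicates 1 and 2 shared by the rule, Spearman's rho of fold enrichment was 0.501. It was 0.308 over the 25 shared by replicates 1 and 3, and 0.587 over the 47 shared by replicates 2 and 3. These are descriptions across regions, which are not independent and which share the depth of their library. A region's mean percentile was higher the more lists held it, at medians of 61.9 for 3 lists, 48.1 for 2 lists and 37.7 for 1 list.

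Of the 21 regions in all lists, 19 are reported by name. Among these 19, those at Raly, Cnnm3 and Arrdc3 had the highest mean percentiles, from 86.8 to 90.01. Raly, which encodes a heterogeneous nuclear RNA-binding protein, had fold enrichments of 6.33, 10.7 and 7.82 in WT replicates 1, 2 and 3 at chr2:154790565-154790880 (mm10), 215 to 238 bp from the gene. Its percentiles were 81.9, 96.9 and 91.2, so that it ranked high in all lists and highest in replicate 2.

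Cnnm3, a member of a family linked to magnesium transport, had 6.24, 7.88 and 8.11 at chr1:36511271-36511702. Arrdc3, an arrestin-domain adaptor that takes part in the turnover of surface receptors, had 5.69, 8.75 and 10.3 at chr13:80882702-80883341. Of these 3, Arrdc3 varied most between lists, with a SD of 14.9 percentile points, and Cnnm3 least, with 6.72. Hspa9, the mitochondrial Hsp70 chaperone, had 6.66, 6.91 and 5.80, with the region 323 to 402 bp away. Rpl37, a protein of the large ribosomal subunit, had 4.94, 7.21 and 6.86.

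The next 6 regions described had mean percentiles from 50.3 to 70.4. Ptpn12, a protein tyrosine phosphatase, had 5.79, 4.83 and 6.83 in replicates 1, 2 and 3. Rasa1, which encodes a Ras GTPase-activating protein, had 5.20, 5.33 and 5.01, which were percentiles of 53.9, 67.6 and 50.7. Rap2a, a small GTPase, had 6.19, 4.26 and 4.71. Atp2b1, a plasma membrane calcium pump, had 4.95, 4.72 and 8.16, which ranked at the middle of the lists of replicates 1 and 2 and at a percentile of 92.5 in replicate 3. Reps1, which takes part in endocytosis, had 5.34, 6.23 and 4.80 and the shortest single distance of the 19, 11 bp in replicate 2. Pa2g4, a cell proliferation-associated protein marked as a transcription factor in the authors' table, had 4.54, 7.12 and 5.96 at 17 to 80 bp from the gene.

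At the low end, 4 of the 19 had mean percentiles from 30.5 to 42.6. Klf10, a zinc finger factor induced by TGF-beta, had 4.85, 4.35 and 5.02 at 316 to 375 bp. Slc11a1 had 5.55, 4.52 and 4.03, and Kifc1, a mitotic kinesin, 4.10, 5.14 and 4.81. Phf13, a PHD finger protein that reads histone methylation, had 4.12, 3.86 and 5.44. The other 4 of the 19 were at D10Wsu102e (mean percentile 78.5), 0610009B22Rik (69.6), Mtrf1l, a mitochondrial translation release factor (60.9), and Kri1 (45.8). Percentiles moved a good deal between lists, with a median range of 36.02 points over the 21 regions, and 10 of the 21 were above the median of their list in every replicate.

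**Figure D4:**
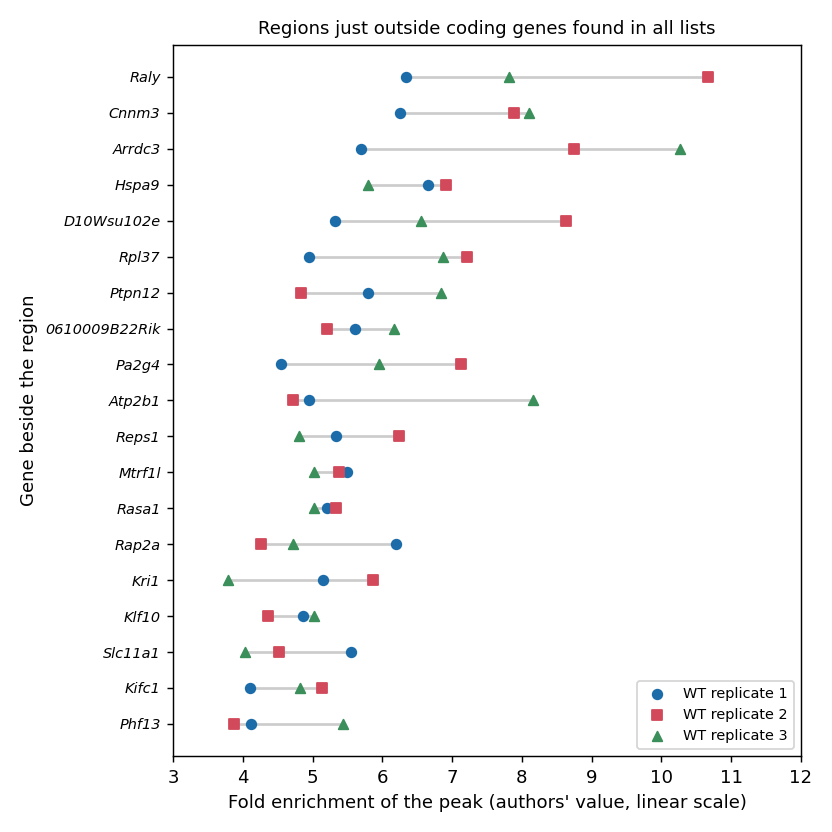
Fold enrichment (x axis, the authors' linear ratio) of the 19 regions in all lists that are reported by name (y axis, ordered by mean percentile), with 1 point for each WT replicate. Values run from 3.79 (Kri1, replicate 3) to 10.7 (Raly, replicate 2), and values of different replicates come from separate lists.

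Regions in exactly 2 lists included stronger ones. At Phf23, a PHD finger protein gene, fold enrichment was 10.1 in replicate 2 and 8.59 in replicate 3, and its mean percentile of 95.2 was above that of each of the 21 regions in all lists. Farsb, a subunit of phenylalanyl-tRNA synthetase, had 10.7 and 7.33 in replicates 2 and 3, and in replicate 1 a peak of 4.77 that touched a gene. Tfcp2, a transcription factor, had 7.87 and 8.22 in replicates 2 and 3. These and the genes of the next sentences, other than Malt1, Arid1a, Ifngr1 and E2f1, were chosen after their values were seen. Arf2, a small GTPase of vesicle traffic, had 5.14 and 9.68 in replicates 1 and 3, and 11.4 in replicate 2 for a peak that touched a gene.

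Regions at Nkg7, Malt1 and Ifngr1 were also in exactly 2 lists. Nkg7, a granule protein of cytotoxic lymphocytes, had 4.51 and 5.09 in replicates 2 and 3, at 130 and 121 bp. Malt1, the paracaspase that relays antigen and activating receptor signals to NF-kappa-B, had 5.83 and 5.28 at 258 and 208 bp. Ifngr1, a chain of the interferon-gamma receptor, had 4.70 and 4.62 at 223 and 126 bp. These 3 were called in replicates 2 and 3 and had no overlapping peak in replicate 1, the shortest list.

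Arid1a, a subunit of the BAF chromatin remodelling complex, had 5.10 and 4.36 in replicates 2 and 3. Smad3, which carries TGF-beta signals to the nucleus, had 5.28 and 5.33 in replicates 1 and 3, and E2f1, a cell cycle transcription factor, 4.75 and 4.88. Dusp2, a phosphatase of MAP kinases, had 4.62 and 5.75 in replicates 1 and 3, and 5.12 in replicate 2 for a peak touching a gene. Mean percentiles of these 4 ran from 41.1 (E2f1) to 58.3 (Smad3), so none stood out from its lists in strength.

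Another 7 regions in 2 lists, also chosen after their values were seen, show the range of values. Psmb3, a proteasome subunit, had 6.78 and 4.71 in replicates 2 and 3, at 25 and 70 bp. The nuclear lamina genes Lmna and Tmpo had 4.72 and 5.45, and 4.38 and 4.68, in the same replicates. Nf2, the tumour suppressor merlin, had 4.68 and 6.77, and Pdk2, a pyruvate dehydrogenase kinase, 5.86 and 5.23 at 862 and 883 bp. Bnip3, a mitophagy receptor, had 3.70 and 5.25, and Ppm1d, a phosphatase of the p53 pathway, 4.76 and 4.82. By rank within the list, Psmb3, Pdk2 and Ppm1d stood higher in replicate 2, and Lmna, Tmpo, Nf2 and Bnip3 higher in replicate 3.

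Single-list regions, of which 45 of 147 had their peak above the 50th percentile of its list, fell into those with and without a peak of another list at the same place. Nup93, a nuclear pore component, had 6.34 at 7 bp in replicate 2 and no overlapping peak elsewhere, as did Rbbp7, a histone-binding protein of chromatin complexes, with 5.89 at 63 bp. Hdac3, a histone deacetylase, had 5.70 at 61 bp in replicate 1, and 5.55 and 5.40 for peaks that touched a gene in replicates 2 and 3. RefSeq starts the Hdac3 span at chr18:37936971, past the end of this region at 37935782. It places an end of Diaph1 within 1000 bp of the region's midpoint, so Hdac3 is not the sole candidate. Bptf, a subunit of the NURF remodeller, had 3.60 at 66 bp in replicate 2, and 5.93 and 6.86 for peaks touching a gene in replicates 1 and 3. Tgfb1, which encodes TGF-beta 1, had 5.25 at 12 bp in replicate 3 and 4.64 for a peak touching a gene in replicate 2. So a region in 1 list by the rule had, at Hdac3 and Bptf, an overlapping peak in all 3 libraries. These 5 were chosen after their values were seen.

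Among 17 lists of genes by function, 13 of 318 genes had a region just outside them (4.09%), 4 of them in at least 2 lists and 0 in all lists. The background over all protein-coding RefSeq genes is 0.927% with a region and 0.256% with one in at least 2 lists. The lists were written for NK cell biology, with results of these data known, so a share above the background is a description and not independent evidence. The AP-1 list had 1 of 14 (Jund), other bZIP factors 0 of 25 and the Ikaros family 1 of 5, Ikzf2, which encodes Helios and had a peak of 4.49 in replicate 2 only, 205 bp from the gene. NK transcription factors had 1 of 23 (Foxo1, 5.61 in replicate 3 only), and cytokine receptors and the JAK-STAT pathway 1 of 31 (Ifngr1). NF-kappa-B, EGR and NR4A genes had 2 of 18 (Malt1 and Relb).

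Cytotoxicity genes had 2 of 18 (Gzmc, and the chemokine gene Ccl3 with 4.36 in replicate 2 only). Cell cycle genes had 2 of 34 (E2f1, and the cyclin gene Ccne1 with 3.57 in replicate 2 only), and chromatin genes 2 of 26 (Arid1a and Rbbp7). Ubiquitin and proteasome genes had 1 of 27 (Psma1). The fixed lists of survival (0 of 17), splicing (0 of 27) and mitochondrial genes (0 of 27) had none, though they do not hold every gene of these kinds, and Hspa9, for one, is outside the mitochondrial list. Markers of other splenic cells had none either, at 0 of 9 for T cells, 0 of 8 for B cells, 0 of 8 for myeloid cells and 0 of 6 for erythroid cells. These counts leave out peaks that touch a gene. Any peak within 1000 bp was found for 8 survival, 5 splicing, 1 mitochondrial and 4 other bZIP genes, and for 0 of the markers.

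Genes that the authors' table marks as transcription factors were at 22 of the 202 regions (10.9%, interval 6.95 to 16.0). The mark was on 5.15% of the other protein-coding genes of the lists (100 of 1942) and on 5.23% of genes of other regions near a coding gene end (59 of 1128). By peaks, the share was 10.6%, 11.6% and 9.41% in replicates 1, 2 and 3, against 5.41%, 6.30% and 6.46% of the other coding gene peaks. It was higher in 3 of 3 lists, by a mean of 4.51 percentage points (SD 1.35, n = 3 lists; exact paired permutation p = 0.25, two-sided). The mean difference was 7.36 points with a −log10 q of at least 5, and 9.21 points against peaks over 1000 bp from a gene. These comparisons were chosen after the data were seen.

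Of the genes with this mark, Pa2g4 was in all lists. Klf10, a zinc finger factor whose region was also in all lists, does not carry the mark. Tfcp2, Crebrf and Hic1 were in replicates 2 and 3, Smad3 and E2f1 in replicates 1 and 3, and Kdm3a, a histone demethylase, in replicates 1 and 2. The other 15 were in 1 list by the rule. They include Jund, Foxo1, Ikzf2, Relb, Smad2, Mycn, Nfat5, Nr2f6 and Klf16, and the general activators Sp1 and Sp4.

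The promoter windows of these genes held the Ikaros core about as often as other promoters. Of 37 promoters with a region in at least 2 lists, TGGGAA (searched on both strands, like every motif) was in 24.3%, against 22.1% of 448 promoters of other regions in at least 2 lists and 24.5% of all 17492. With a region in any list it was in 26.7% of 120. The AP-1 site TGANTCA was in 0 of the 37 (interval to 9.49%), against 4.24% of the promoters of other regions and 7.08% of all. With a region in any list it was in 4.17% of the 120. A window without a match says only that these letters are not in those 300 bases. Here and for the motifs below, a match was counted anywhere in the window, inside or outside the region. The CCAAT boxes of Cnnm3, for example, lie outside its region, and that of Rpl37 lies inside. The shares therefore describe the promoters and not the sequence under the peaks.

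The windows differed from the average promoter in composition, as did those of the other bound genes. Median GC content was 66.7%, against 65.7% for promoters of other regions and 56.3% for all. The ratio of observed to expected CpG passed 0.6 in 89.2% of these promoters, against 91.1% of those of other regions and 48.3% of all. The GC box GGGCGG was in 89.2% of these promoters, against 82.8% of those of other regions and 46.3% of all, and the ETS motif CCGGAAG in 24.3%, against 23.4% and 11.9% of the same sets. On each of these 4 measures the value for these promoters was nearer to that for other regions than to that for all genes.

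The CCAAT box, which binds the general factor NF-Y, was in 59.5% of the 37 promoters (interval 42.1 to 75.2), against 34.6% of those of other regions (30.2 to 39.2) and 39.0% of all. With a region in any list the share was 47.5%, and with a region in all lists 6 of 12. The E-box CACGTG was in 18.9%, against 8.71% of those of other regions and 7.90% of all. It was in 13.3% of the 120 with a region in any list and in 1 of the 12 with a region in all lists (8.33%, interval 0.211 to 38.5). Shares of the other motifs, against those of the same 2 sets, were 5.41% against 8.93% and 8.76% for the CRE core TGACGT, 8.11% against 10.9% and 15.1% for RUNX TGTGGT, 8.11% against 3.79% and 5.34% for T-box AGGTGTG, 16.2% against 14.3% and 10.1% for the NRF1 core TGCGCA, and 2.70% against 8.71% and 5.41% for the YY1 core ATGGCGG. The 11 motifs differ in length, and CCAAT has only 5 letters, so shares compare within a motif and not between motifs.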

How the data were processed

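Ikaros ChIP-seq peak lists of the 3 WT libraries were used. The list of WT replicate 3 carries a different replicate number in its peak names, and was matched to the sample titled replicate 3 through its description. The labels' protocols give crosslinking in 2% formaldehyde, sonication (100 to 200 bp) and immunoprecipitation with 2 µg of anti-Ikzf1. The submitters' processing notes name Subread, Picard, SAMtools, MACS2, edgeR 3.20.0 and build mm10. Which control library, threshold and gene annotation were behind the lists is not given in the sources used here. Values deposited for a peak, per the file headers, are a fold enrichment (a linear ratio), −log10 p, −log10 q, a score, the distance to a gene and a transcription factor mark. Replicates were called separately.

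Lists were reduced to 1 entry per peak and merged at 1 shared base. Fold enrichment was ranked within a list as a percentile. Lists were compared by an exact paired sign-flip permutation test over 3 libraries. Shares have Clopper-Pearson intervals at 95%, which cover counting error only. The lists hold no read counts, so depth is unknown. Gene starts, strands and promoters came from RefSeq (GRCm38.p6), whose promoter table lacks some genes. No exon or intron was assigned.

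The members, gene lists, motifs and tests were chosen with earlier results of these data known. Regions were named by rule: the 20 strongest and 5 weakest in all lists, the 3 nearest and 3 farthest, and members of the gene lists in at least 2 lists. Of these, 2 are not reported here, though they stay in the counts. Regions in 1 list only within its top 2% were also to be named, and there were 0. On simulated lists, the rule kept 200 of 200 planted regions and 0 of 300 decoys. Planted peaks overlapped and decoys failed the rule by construction, so this checks the code and not the merging of neighbouring peaks in the real lists. Python 3.11.15, NumPy 2.4.6, pandas 2.3.3, SciPy 1.17.1 and matplotlib 3.10.9 were used.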

Additional observations from a re-analysis of the deposited data

How the results depend on the processing

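No paired analysis was possible because only WT libraries entered the results and nothing was compared between WT and KO by replicate number (the paired tests of the report set classes of peaks side by side within a list). The number of regions was 65 when a −log10 q of at least 5 was asked for, 16 with at least 10, and 107 to 184 without 1 replicate, the lowest without replicate 2. Regions in all lists numbered 6 and 1 at those −log10 q limits, 13 with lists of equal length, 40 with any overlapping peak counted, and 25 to 47 without 1 replicate. Regions in at least 2 lists numbered 18, 8, 31, 92 and 25 to 47 in the same order. Without 1 replicate only 2 lists remain, so being in all lists then means being in 2, and these counts coincide. A partner is then sought in the 1 other list. Stricter limits and shorter lists leave fewer peaks by construction, and other causes were not tested. The percentile difference was -1.99 with all lists and -4.78 to 2.41 without 1 replicate, positive without replicate 2 (2.41). Genes of the fixed lists numbered 4 with regions in at least 2 lists and 0 with regions in all lists. The differences in partner share (-9.40 to -3.24 percentage points) and width (-49.3 to -32.0 bp) and the transcription factor share (3.88 to 9.21 percentage points higher, the last against peaks over 1000 bp from a gene) kept their direction under the alternatives run. With limits of 500 or 2000 bp in place of 1000 bp there were 187 or 229 regions. The start side share was 94.4% by the nearest gene start. Ranked by −log10 p, the mean percentile of Klf10 was 53.8 in place of 42.6. Depth is unknown, so the lists do not tell an unbound site from a weakly bound one that was missed.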
